A study of Mus musculus with 12 samples.

Results

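The 51 genes described here encode the machinery of DNA replication, and their mRNA was followed in mouse pre-B cells transformed by BCR-ABL1, in which β-catenin was stabilized or Ikaros factors were targeted. They were chosen by gene symbol, as the MCM, origin recognition, GINS, replicative polymerase, primase, replication factor C and RPA genes together with 12 further genes (Cdc45, Cdc6, Cdc7, Cdt1, Gmnn, Dbf4, Pcna, Lig1, Fen1, Rrm1, Rrm2 and Tyms). All 51 were found among the 12151 genes of the table, and each was listed once. The table gives 1 normalized log2 value per gene and library. These values are not divided by gene length, so levels were compared between groups of libraries and not between genes.

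The cells were a mouse model of B cell acute lymphoblastic leukemia. They came from the bone marrow of Ctnnb1 Ex3fl/+ animals aged 6 to 12 weeks, in which 1 allele of the β-catenin gene carries a floxed exon 3, and all 4 groups shared this allele and the BCR-ABL1 oncogene. Loss of exon 3 removes the residues whose phosphorylation sends β-catenin to degradation. WT cells had received nontargeting guides (sgNTC) and KO cells guides against Ikzf1 and Ikzf3, in both cases as Cas9 ribonucleoprotein, and lines were then grown from single cells. Both backgrounds were transduced with a GFP vector for ERT2, the control, or for Cre-ERT2, whose Cre acts once 4-hydroxytamoxifen is given, and GFP+ cells were sorted. The protocol places the harvest 1 day after 4-hydroxytamoxifen, in a sentence written for chromatin work. With either vector (ERT2 or Cre-ERT2) and in either background (WT or KO) there were 3 libraries. An effect of β-catenin below means Cre-ERT2 against ERT2 libraries. No group had Cre-ERT2 without the floxed allele, so stabilized β-catenin cannot be told apart from an effect of active Cre itself. Which single-cell line each library came from is not stated, so a difference between KO and WT cannot be told apart from a difference between lines, and p-values measure the spread between these libraries, which may be technical.

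Library medians lay between 9.06 and 9.11 and no pair of the 66 library pairs was identical. The read depth of the libraries is unknown. Ikzf1 mRNA was not lower in the libraries labelled KO, with values of 14.56 to 14.76 against 13.66 to 13.75 in WT, whereas Ikzf3 was lower, at 10.97 to 11.34 against 11.59 to 11.93. A gene-level value does not show whether the transcript is intact, and KO below means labelled KO. All 9 B-lineage markers examined were in the table, with summed levels of 16.55 to 16.61 in WT and 16.17 to 16.26 in KO libraries. They did not all move the same way. Mean Rag1 was higher in KO (11.80 against 11.47 with ERT2, 11.66 against 11.32 with Cre-ERT2). So was Rag2 (9.97 against 9.59, and 9.92 against 9.49), while the means of the other markers were lower. Of markers of other cells, 1 of 6 T cell genes (Lck), 2 of 6 myeloid genes (Itgam and Lyz2), 0 of 6 erythroid and megakaryocyte genes and 1 of 5 stromal and endothelial genes (Pecam1) were in the table.

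DNA replication is prepared in G1, when the origin recognition complex, CDC6 and CDT1 load the MCM2-7 helicase onto origins. This step is called licensing, and geminin (Gmnn) restrains it by binding CDT1. In S phase the kinase CDC7 with its activator DBF4, together with MCM10, CDC45 and the GINS complex, turns the loaded helicase into a moving fork. Primase and polymerase α then lay down primers, polymerases ε and δ extend the leading and lagging strands, replication factor C (RFC) loads the sliding clamp PCNA, RPA coats single-stranded DNA, FEN1 and LIG1 finish Okazaki fragments, and ribonucleotide reductase (Rrm1, Rrm2) and thymidylate synthase (Tyms) make the precursors. Many of these genes are textbook targets of E2F transcription factors.

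Promoter windows from RefSeq (GRCm38.p6, 250 bases before to 50 after the start) were found for 43 of the 51 genes. None was given for Gmnn, Gins1, Gins2, Gins4, Mcm4, Pole, Prim2 and Rfc2. An E2F-type site, spelled TTTCCCGC or TTTGGCGC on either strand, stood in 15 of the 43 windows (34.9%), against 1.8% of 27025 genes with a window and 3.64% of the 8566 of them that are in the expression table. The E-box CACGTG stood in 8 (18.6%, against 8.09% and 12.1%). The Ikaros core GGGAA, which the first E2F spelling contains on its other strand, stood in 34 (79.1%, against 65.5% and 68.8%), and the TCF letters CTTTGA in 3 (6.98%, against 18.2% and 14.2%). A match is a description of the letters and does not show that a factor binds there.

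Stretches of 100 bases upstream of the RefSeq start are shown for Mcm2, Mcm3, Mcm5 and Mcm6, as members of the helicase group whose genes were all called lower in KO cells on the deposited scale (of those printed, Mcm3 with ERT2 and Mcm6 with either vector were not called with quantile normalization), and for Cdc6, among the largest falls in KO cells. The Mcm stretches overlap no annotated exon or gene. The Cdc6 stretch lies in an intron of the GENCODE model of Cdc6. E2F-type sites are in capitals. The site of Mcm5 begins 149 bases before the start and that of Cdc6 138 bases before it, both on the opposite strand. Mcm6 has the site shown, 47 bases before its start, and another at 110. Mcm3 has 2 sites after its start and none in the stretch, and Mcm2 has none.
Mcm5 (chr8:75109340-75109439, plus strand): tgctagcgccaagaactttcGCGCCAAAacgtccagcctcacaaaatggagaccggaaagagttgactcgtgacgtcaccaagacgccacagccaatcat
Mcm6 (chr1:128359706-128359805, minus strand): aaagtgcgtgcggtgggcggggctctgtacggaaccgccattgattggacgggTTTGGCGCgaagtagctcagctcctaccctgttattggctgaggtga
Cdc6 (chr11:98907993-98908092, plus strand): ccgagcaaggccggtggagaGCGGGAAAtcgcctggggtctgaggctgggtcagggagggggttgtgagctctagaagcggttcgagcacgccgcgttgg
Mcm2 (chr6:88898781-88898880, minus strand): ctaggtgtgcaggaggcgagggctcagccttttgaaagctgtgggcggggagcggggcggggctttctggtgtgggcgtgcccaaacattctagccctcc
Mcm3 (chr1:20820313-20820412, minus strand): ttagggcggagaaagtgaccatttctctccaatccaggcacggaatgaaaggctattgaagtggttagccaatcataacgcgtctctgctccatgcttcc

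**Figure D1:**
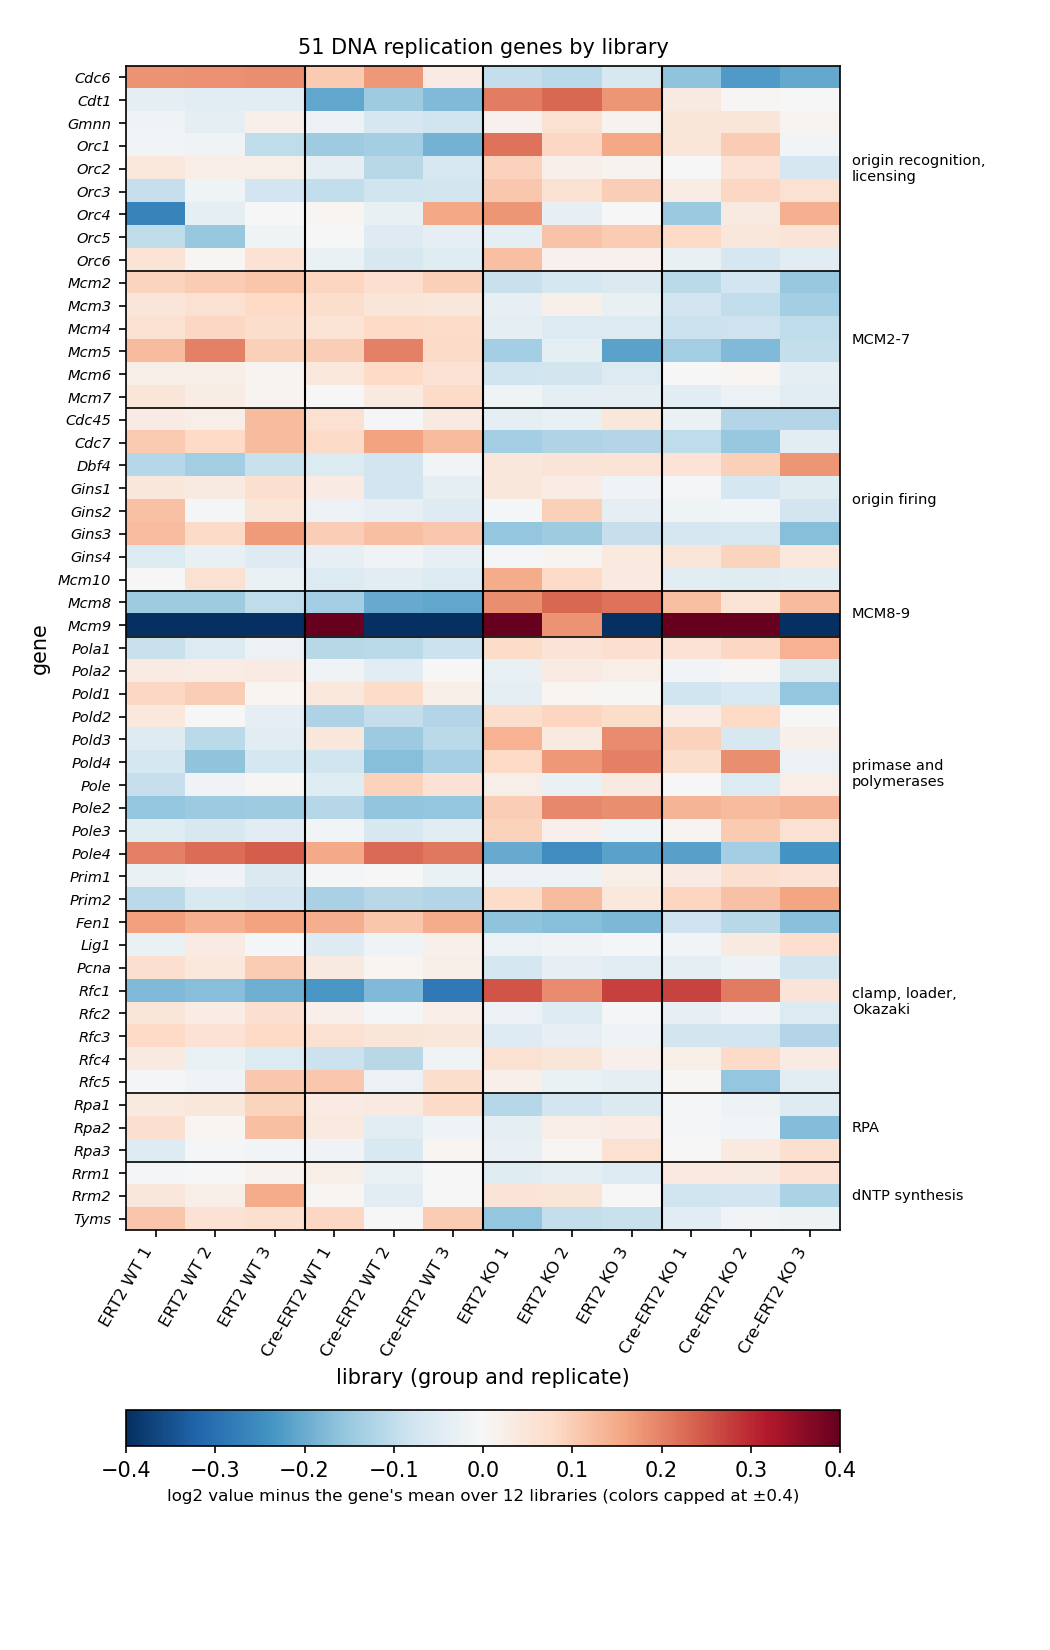
Heat map of the 51 genes (rows, by role) in the 12 libraries (columns, by group and replicate), as the log2 value minus the gene's mean over all libraries, with colors capped at 0.4 either way. WT and KO libraries are separate for, among others, Rfc1, Mcm8 and Pole2 (higher in KO) and Pole4, Fen1, Cdc6, Gins3 and Cdc7 (lower in KO), and Mcm9 reaches the cap in 11 libraries.

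The question first put to the data was what stabilized β-catenin does to the replication genes of cells with nontargeting guides. In WT cells the replication genes hardly moved: 2 of 51 were called at a limma adjusted p under 0.05, both lower in Cre-ERT2 libraries, and none was higher. Among all genes 11.9% were called, 5.93% higher and 5.95% lower. These include 2556 genes with a mean up to 6, where no replication gene lay. A mean of at least 8 was reached by 7729 genes, among them every replication gene but Mcm9. In a fit to these alone 1290 were called, 624 higher and 666 lower. The median change of the 51 genes was -0.021 on the log2 scale, against 2.18e-05 over all genes, with 37 genes negative and 14 positive. For 49 of the 51 genes the 95% interval of the change lay within 0.2 of 0. The exceptions were Orc4, a subunit of the origin recognition complex whose interval reached 0.33, and Mcm9. At an unadjusted p under 0.05 there were 12 genes, where 24.9% of all genes had such a p. Over the same libraries the mRNA of Myc, a driver of proliferation, fell by 0.62. Lck and Pecam1, the only genes of their marker lists in the table, moved with the vector too. Lck lay at 8.81 to 8.92 in ERT2 WT and 9.66 to 9.73 in Cre-ERT2 WT libraries, and Pecam1 at 10.72 to 10.82 and 11.04 to 11.09. The myeloid sum was 7.60 to 7.62 in ERT2 WT and 7.57 to 7.60 in Cre-ERT2 WT libraries. In KO cells Lck lay at 7.40 to 7.46 with ERT2 and 7.73 to 7.79 with Cre-ERT2, and Pecam1 at 9.74 to 9.75 and 10.09 to 10.13. The myeloid sum was 8.45 to 8.53 and 8.65 to 8.76 there. Mean Lyz2 was 8.40 and 8.61, and mean Itgam 4.51 and 4.52. The part of these genes in the effects of β-catenin was not tested.

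Cdt1 (chromosome 8, 122568015 to 122573554, plus strand), the licensing factor that brings MCM2-7 to the origin, measured 10.45, 10.44 and 10.44 in the ERT2 WT libraries and 10.28, 10.34 and 10.31 in the Cre-ERT2 WT libraries. Every Cre-ERT2 value lay below every ERT2 value, and the change was -0.14 (SE 0.024, limma adjusted p 0.00258). Pold2 (chromosome 11, 5872180 to 5878292, minus strand), the small accessory subunit of polymerase δ, measured 11.49, 11.45 and 11.41 in ERT2 WT and 11.33, 11.36 and 11.34 in Cre-ERT2 WT. Its change was -0.11 (SE 0.026, limma adjusted p 0.0147). The groups did not overlap, but the call was lost without ERT2 WT replicate 1 (adjusted p 0.068), without Cre-ERT2 WT replicate 1 (0.0541) or without Cre-ERT2 WT replicate 3 (0.0526) in the limma fit, which left 1 called gene. Cdt1 lies with the same-strand coding model Gm20388, whose reads may be shared with it.

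Licensing genes other than Cdt1 were not called in WT cells. All 3 Cre-ERT2 values were below all 3 ERT2 values for Orc1 (-0.11), Orc2 (-0.10), Orc6 (-0.086) and Cdc6 (-0.080), with limma adjusted p values of 0.101, 0.0750, 0.0953 and 0.147. Across the 51 genes such separation was found for 14 lower and 2 higher genes (Mcm6 and Dbf4), where 31.1% of all genes were separated, 15.9% lower and 15.2% higher. The MCM2-7 helicase genes changed by -0.018 to 0.041 and none was called. The origin firing genes ranged from -0.090 (Gins2) to 0.066 (Dbf4), and the clamp, clamp loader and Okazaki fragment genes from -0.055 (Rfc4) to 0.024 (Rfc5), with no call in either group. RPA and precursor synthesis also held no call, Rrm2 being the most negative at -0.084.

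The effect of β-catenin was next taken in the cells with Ikzf1 and Ikzf3 guides. Here 7 of 51 genes were called, 1 higher and 6 lower, against 12.6% of all genes (7.27% higher and 5.33% lower). In the fit to the 7729 genes with a mean of at least 8, 1214 were called, 667 higher and 547 lower. The called changes of replication genes stayed small, at most 0.19 in size. The median over the 51 genes was -0.027, against -0.00041 over all genes. The intervals of 47 genes lay within 0.2 of 0. Groups were separate for 10 lower and 6 higher genes, where 28.3% of all genes were separated (13.9% lower and 14.5% higher). Myc fell by 0.31 in these cells, from a mean of 13.31 to 13.00. Its means in WT cells were 12.21 with ERT2 and 11.59 with Cre-ERT2.

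Cdt1 was again lower, at 10.52, 10.49 and 10.48 in Cre-ERT2 KO against 10.69, 10.71 and 10.66 in ERT2 KO libraries, a change of -0.19 (SE 0.024, limma adjusted p 0.000168). It was the one replication gene called in both backgrounds. Cdc6, the ATPase that acts beside CDT1 in loading the helicase, measured 10.56, 10.49 and 10.51 against 10.62, 10.61 and 10.65, a change of -0.11 close to the threshold (limma adjusted p 0.0478). This call was lost without each KO library in turn except Cre-ERT2 KO replicate 1 (limma adjusted p 0.0851 to 0.149), in the fit to KO libraries alone (0.0586) and with a replicate block (0.0756). Mcm10 (chromosome 2, 4989714 to 5012791, minus strand), which helps activate the helicase, measured 11.44 in each Cre-ERT2 KO library and 11.63, 11.56 and 11.52 in ERT2 KO, a change of -0.13 (SE 0.029, limma adjusted p 0.0101). None of these 3 genes had overlapping groups.

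The subunits of ribonucleotide reductase, which makes deoxynucleotides, moved in opposite directions in KO cells. Rrm1 (chromosome 7, 102441695 to 102469771, plus strand), its large subunit, rose from 14.03, 14.04 and 14.02 to 14.11, 14.11 and 14.14, a change of 0.089 (SE 0.018, limma adjusted p 0.00584). Rrm2 (chromosome 12, 24708241 to 24714146, plus strand), its small subunit, fell from 13.19, 13.19 and 13.14 to 13.06, 13.06 and 13.01, a change of -0.13 (SE 0.032, limma adjusted p 0.0210). The groups of both genes were separate. Tyms, the thymidylate synthase, had separate groups and a change of 0.088 without being called (limma adjusted p 0.0802). The call of Rrm2 was lost without ERT2 KO replicate 1, ERT2 KO replicate 2 or Cre-ERT2 KO replicate 3, where limma adjusted p was 0.0729, 0.0764 and 0.0699.

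The other calls in KO cells concerned MCM genes. Mcm8 (chromosome 2, 132816141 to 132844197, plus strand), an MCM paralog of homologous recombination, measured 9.78, 9.71 and 9.78 in Cre-ERT2 KO and 9.84, 9.89 and 9.87 in ERT2 KO libraries, a change of -0.11 (SE 0.029, limma adjusted p 0.0267). Its groups were separate, and the call was lost without ERT2 KO replicate 2 or 3 or Cre-ERT2 KO replicate 2 (limma adjusted p 0.0969, 0.0786 and 0.0989) and in a fit to KO libraries alone (0.0717). Mcm3, a subunit of the MCM2-7 ring, was lower by 0.089 (SE 0.022, limma adjusted p 0.0185), a call lost without ERT2 KO replicate 2 (0.0860), without Cre-ERT2 KO replicate 3 (0.0565) and in the fit to KO libraries alone (0.0890). Among the other 5 MCM2-7 genes changes ran from -0.041 (Mcm4) to 0.059 (Mcm6). No polymerase, primase, clamp, loader, Okazaki or RPA gene was called in KO cells. Without ERT2 KO replicate 2 the count of lower genes was 2, and without Cre-ERT2 KO replicate 3 it was 3, with 3 higher. A fit to the 6 KO libraries alone left 3 lower.

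**Figure D2:**
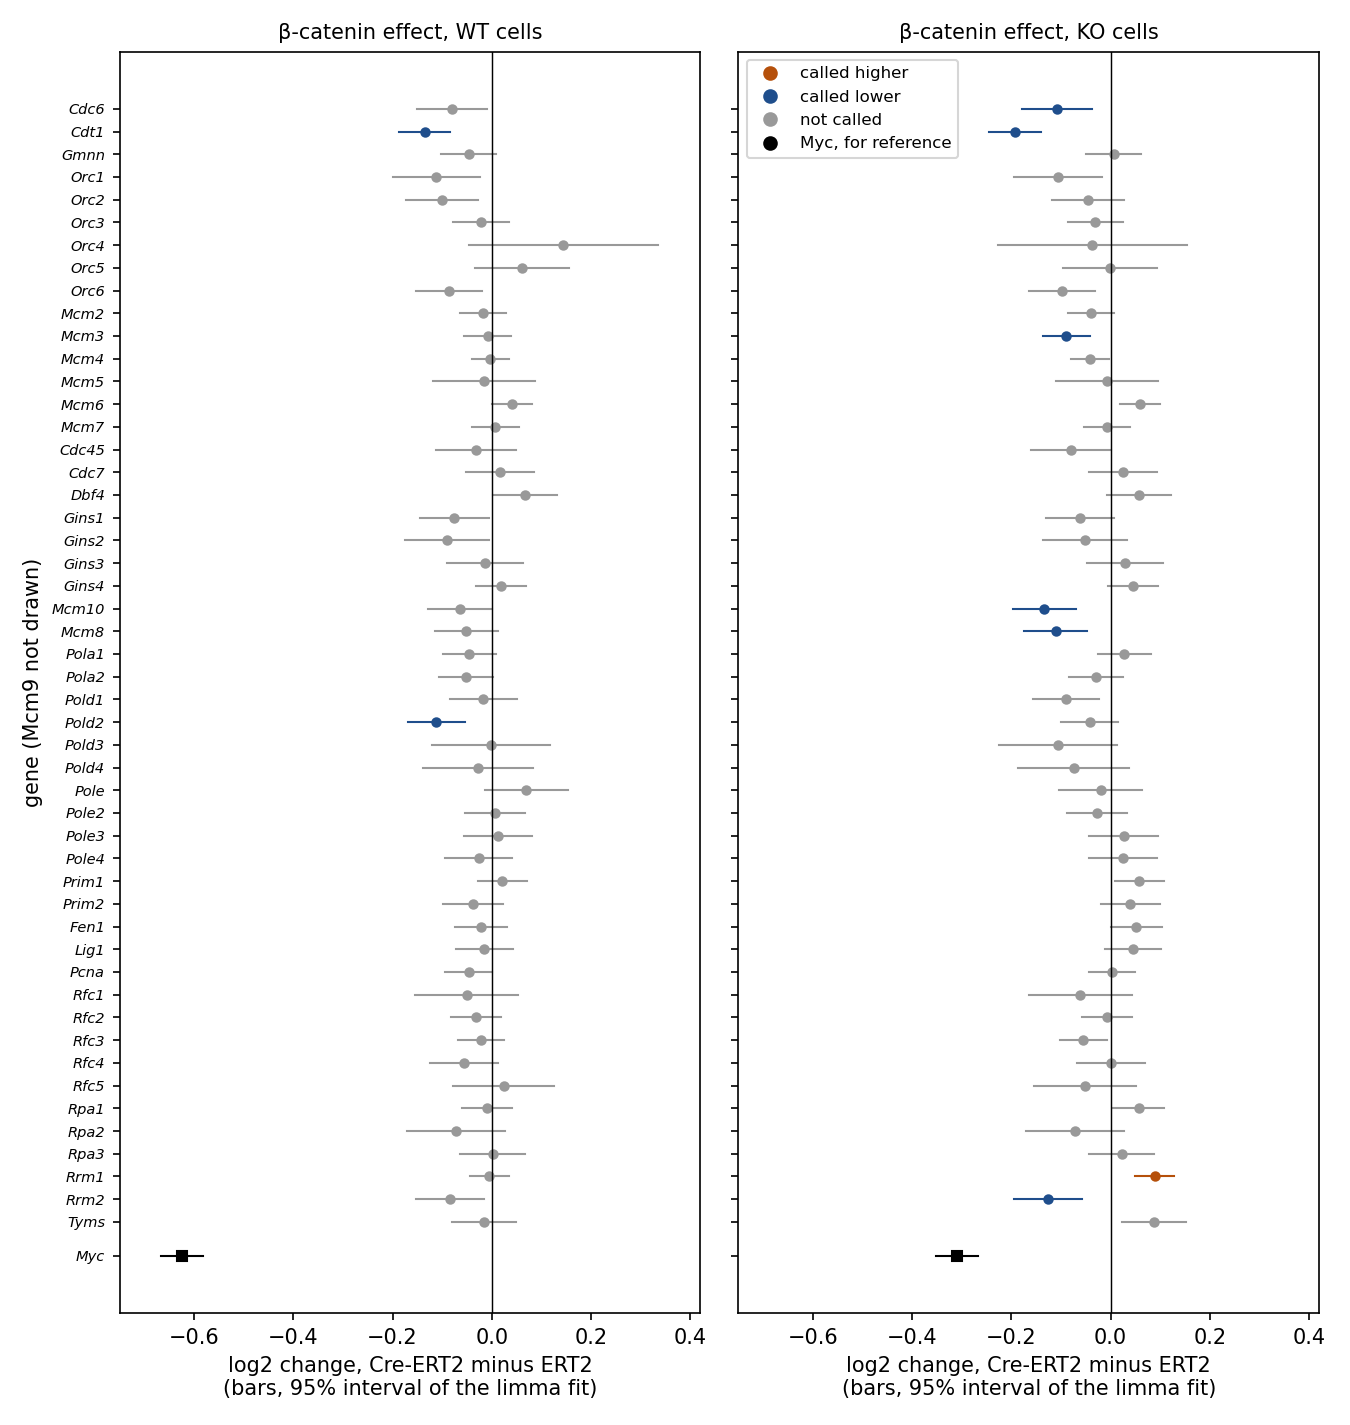
Log2 change with stabilized β-catenin (x axis, Cre-ERT2 minus ERT2; bars, 95% interval of the limma fit) for 50 replication genes in WT (left) and KO cells (right), with Myc for reference and Mcm9 not drawn because of its wide interval. Called genes number 2 in WT and 7 in KO cells, all within 0.2 of 0, while Myc lies at -0.62 and -0.31.

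Whether the response to β-catenin differed between KO and WT cells was tested by the difference of the 2 effects. No replication gene was called by limma, where 4.53% of all genes were (2.71% higher and 1.82% lower). An unadjusted limma p under 0.05 was found for 4 genes (Rrm1, Mcm3, Tyms and Fen1), where 17.3% of all genes had such a p. A limma fit with a prior not dependent on the mean, or on quantile-normalized values, called 1 gene, which was higher. The smallest limma adjusted p was that of Rrm1 (0.0599), with a difference of 0.094 (SE 0.025). For 45 of the 51 genes the interval of the difference lay within 0.2 of 0. The effects on Cdt1 differed by -0.057 (95% interval -0.13 to 0.017), and those on Mcm10 by -0.070 (-0.16 to 0.021). The calls made in KO cells only are thus not shown to be particular to them.

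The remaining comparisons asked how KO and WT cells differ, first in ERT2 libraries and then in Cre-ERT2 libraries. About as many replication genes were higher as lower. In ERT2 libraries 16 of 51 were called higher and 17 lower, where 59% of all genes were called (29.8% higher and 29.3% lower). With Cre-ERT2 there were 17 higher and 19 lower genes, against 58.9% of all genes (30.4% and 28.6%). In the fit to the 7729 genes with a mean of at least 8, 5126 were called with ERT2 (2348 higher and 2778 lower). With Cre-ERT2 5096 of them were called (2415 and 2681). Among replication genes, groups were separate for 14 higher and 17 lower genes with ERT2 (65.5% of all genes, 33.3% higher and 32.1% lower), and for 18 and 19 with Cre-ERT2 (63.6%, 32.9% and 30.7%). The medians were -0.012 and 0.00020, against 0.0016 and 0.0016 over all genes. No called change of a replication gene reached 0.5, and the largest was 0.45 in size. Myc was higher in KO cells, by 1.10 with ERT2 and 1.41 with Cre-ERT2. These 2 comparisons share no library, but both set the same 2 backgrounds against each other. The fit also pooled the spread over all 12 libraries, so the comparisons are not independent. Called the same way in both were 28 genes, 13 higher and 15 lower, 1 gene (Rrm1) was called in opposite directions, 4 were called in ERT2 libraries only, 7 in Cre-ERT2 libraries only and 11 in neither. Among all 12151 genes, 3032 were called higher in both, 2924 lower in both, 32 in opposite directions and 3803 in neither. The split of higher and lower calls moved with the scaling, among all genes as well. With each library centered on its median it was 12 and 19 in ERT2 libraries (23.6% and 39.1% of all genes). In Cre-ERT2 libraries it was then 12 and 20 (24.5% and 39.4%). With quantile normalization it was 16 and 12 with ERT2 (27.7% and 32.1%). With Cre-ERT2 it was then 19 and 12 (28.1% and 32.8%).

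KO libraries also differed in genes listed as markers of other cells. The 2 myeloid markers in the table summed to 8.45 to 8.76 in KO and 7.57 to 7.62 in WT libraries, through Lyz2 alone. Mean Itgam was lower in KO, at 4.51 against 4.66 with ERT2 and 4.52 against 4.70 with Cre-ERT2. Lck and Pecam1 were lower in KO too. Their part in the differences below was not tested. In bulk RNA, fewer cells in S phase and less RNA of a replication gene per cell cannot be told apart.

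**Figure D3:**
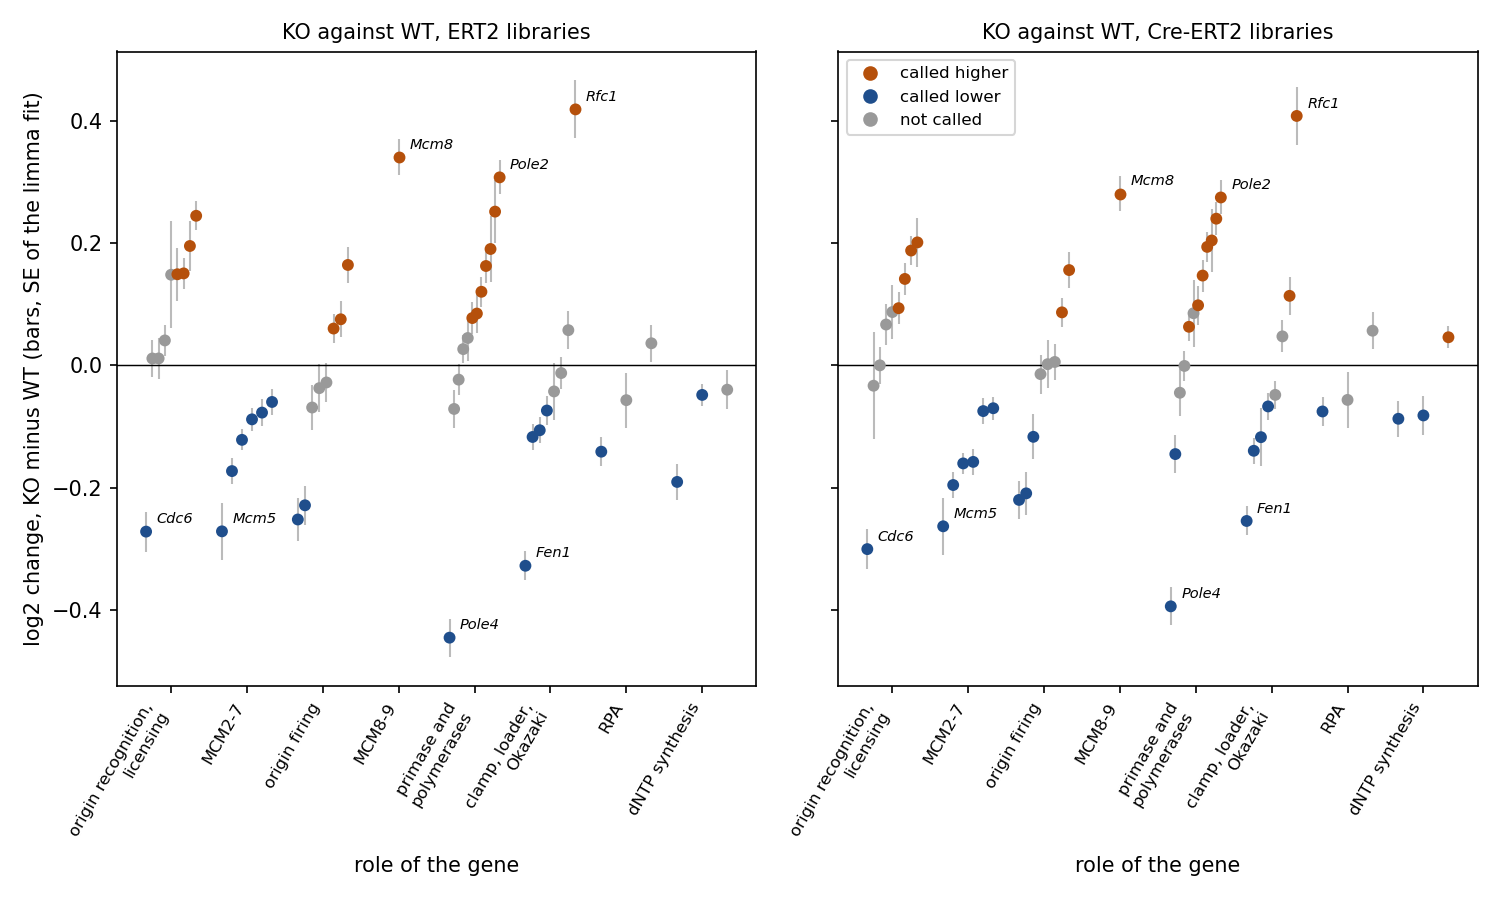
Log2 change between KO and WT cells (y axis, KO minus WT; bars, SE of the limma fit) for 50 replication genes by role, in ERT2 (left) and Cre-ERT2 libraries (right); Mcm9 is not drawn. All 6 MCM2-7 genes lie below 0 in both panels (Mcm6 above 0 with quantile normalization, at 0.0038 and 0.038), most called polymerase and primase genes lie above 0, and Rfc1 (0.42 and 0.41) and Pole4 (-0.44 and -0.39) are at the ends.

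Among licensing genes, 4 of 9 were higher and 1 lower in either comparison, against 29.8% and 29.3% of all genes with ERT2 and 30.4% and 28.6% with Cre-ERT2. Cdt1 (0.24 and 0.19), Orc1 (0.20 and 0.20) and Orc3 (0.15 and 0.14), the last 2 subunits of the origin recognition complex, were higher in both. Orc5 joined them in ERT2 libraries (0.15) and Gmnn, the inhibitor of CDT1, in Cre-ERT2 libraries (0.094). Orc2, Orc4 and Orc6 were called in neither. The lower gene was Cdc6 (chromosome 11, 98907801 to 98923940, plus strand), at 10.62, 10.61 and 10.65 in ERT2 KO against 10.90 in each ERT2 WT library, and at 10.56, 10.49 and 10.51 in Cre-ERT2 KO against 10.82, 10.89 and 10.75 in Cre-ERT2 WT. All KO values lay below all WT values, with changes of -0.27 (SE 0.033, limma adjusted p 1.22e-05) and -0.30 (SE 0.033, limma adjusted p 4.70e-06). CDC6 and CDT1 act in the same loading step, and their genes went in opposite directions.

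The MCM2-7 genes encode the ring that unwinds DNA. All 6 were lower in KO cells in both comparisons, with no overlap between groups, but with quantile normalization 3 stayed called in ERT2 libraries (Mcm2, Mcm4 and Mcm5) and 4 in Cre-ERT2 libraries (with Mcm3), and Mcm6 changed sign without a call (0.0038 and 0.038). With median centering all 6 stayed called in both. Leaving out 1 library left 5 or 6 called lower in either comparison, 5 for example without ERT2 WT replicate 1 or without Cre-ERT2 WT replicate 3. Of all genes, 29.3% and 28.6% were called lower on the deposited scale. The shares were 32.1% and 32.8% with quantile normalization, and 39.1% and 39.4% with median centering.

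The fall was largest for Mcm5 (chromosome 8, 75109569 to 75128439, plus strand), whose upstream E2F-type site is printed above. It measured 10.32, 10.41 and 10.24 in ERT2 KO against 10.58, 10.65 and 10.55 in ERT2 WT libraries, a change of -0.27 (SE 0.047, limma adjusted p 0.000284). In Cre-ERT2 libraries it measured 10.31, 10.27 and 10.36 in KO against 10.55, 10.65 and 10.53 in WT, a change of -0.26 (SE 0.047, limma adjusted p 0.000355). The groups were separate although replicates of Mcm5 varied more than those of the other 5 genes.

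Mcm2, which lacks such a site in its window, measured 12.93, 12.95 and 12.96 in ERT2 KO against 13.11, 13.12 and 13.13 in ERT2 WT, and 12.91, 12.94 and 12.87 in Cre-ERT2 KO against 13.10, 13.09 and 13.11 in Cre-ERT2 WT. The changes were -0.17 and -0.20 (SE 0.021 each), several times the spread between libraries. Mcm4 measured 13.08, 13.06 and 13.06 against 13.18, 13.20 and 13.19 in ERT2 libraries and 13.03, 13.03 and 13.01 against 13.17, 13.20 and 13.19 in Cre-ERT2 libraries, and changed by -0.12 and -0.16. Mcm3 measured 13.42, 13.48 and 13.43 against 13.50, 13.52 and 13.54, and 13.38, 13.36 and 13.32 against 13.53, 13.50 and 13.50. Its changes were -0.077 and -0.16. The changes of Mcm6 were -0.088 and -0.070, and those of Mcm7 -0.060 and -0.075. Mcm7 overlaps opposite-strand coding genes.

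**Figure D4:**
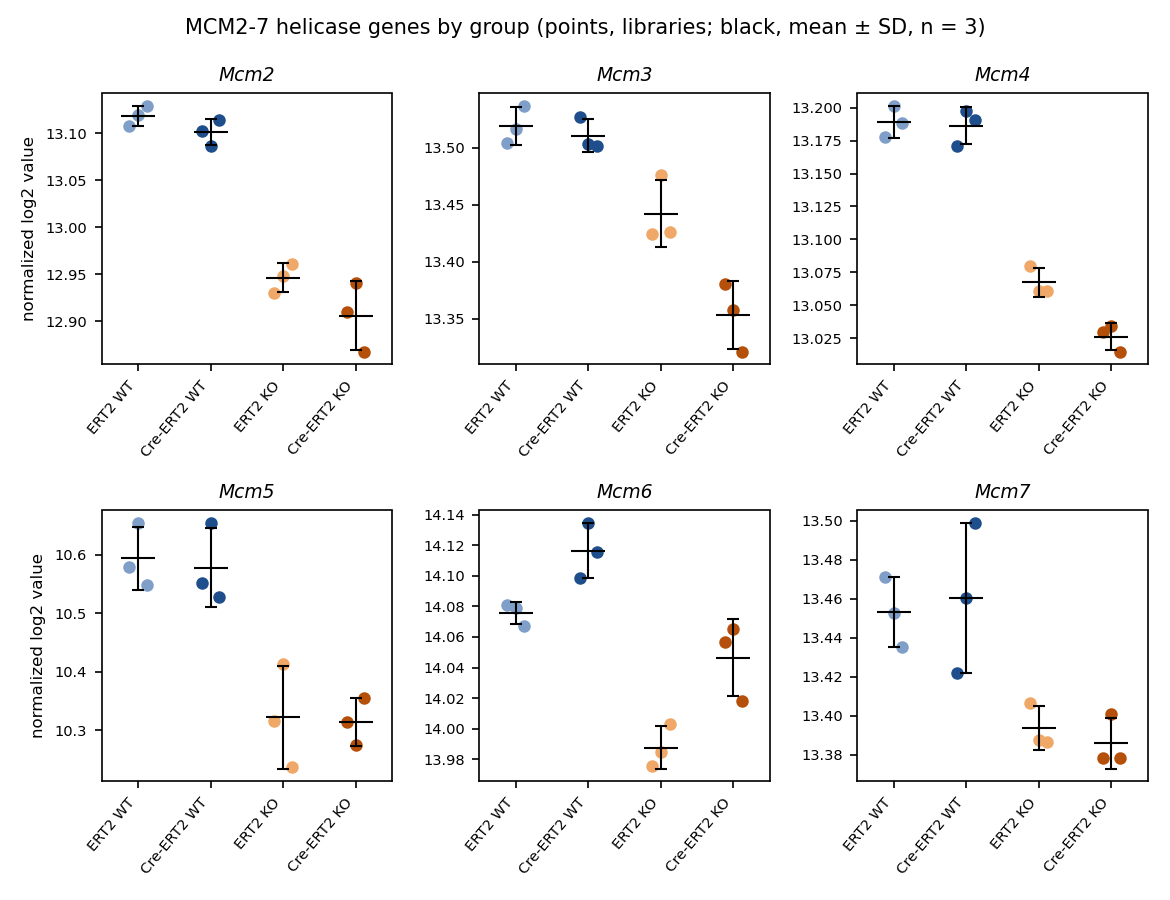
Normalized log2 values (y axis, a separate scale for each gene that does not start at 0) of the 6 MCM2-7 genes in the 4 groups (x axis); points are libraries and black marks the mean ± SD of 3. In each gene every KO library lies below every WT library with the same vector in the deposited scaling (with quantile normalization Mcm6 changes sign), and the means differ most for Mcm5 (-0.27 and -0.26).

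The genes of origin firing were divided. Cdc7, the kinase, was lower in both comparisons (-0.23 and -0.22) while Dbf4, its activating subunit, was higher (0.16 and 0.16). Of the GINS subunits, Gins3 was lower (-0.25 and -0.21), Gins4 was higher (0.060 and 0.087), and Gins1 and Gins2 were not called. Cdc45 was called in Cre-ERT2 libraries (-0.12) and Mcm10 in ERT2 libraries (0.075). Partners of single complexes, CDC7 with DBF4 and GINS3 with GINS4, were thus found on opposite sides.

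Of the 12 primase and polymerase genes, 7 were higher and 1 lower in KO cells with ERT2 (29.8% and 29.3% of all genes), and 7 were higher and 2 lower with Cre-ERT2 (30.4% and 28.6%). Pole2 (chromosome 12, 69201773 to 69228195, minus strand), the B subunit of polymerase ε, measured 9.57, 9.66 and 9.65 in ERT2 KO against 9.31, 9.32 and 9.33 in ERT2 WT, and 9.60 in each Cre-ERT2 KO library against 9.35, 9.31 and 9.32 in Cre-ERT2 WT. All KO values lay above all WT values, and the changes were 0.31 (SE 0.028, limma adjusted p 8.74e-07) and 0.27 (SE 0.028, limma adjusted p 2.43e-06).

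Pole4 (chromosome 6, 82618992 to 82705365, minus strand), a histone-fold subunit of the same polymerase, had the largest fall of the 51 genes. It measured 10.36, 10.31 and 10.35 in ERT2 KO against 10.77, 10.79 and 10.81 in ERT2 WT, and 10.35, 10.43 and 10.32 in Cre-ERT2 KO against 10.72, 10.79 and 10.77 in Cre-ERT2 WT. The groups were far apart, with changes of -0.44 (SE 0.031, limma adjusted p 7.49e-08) and -0.39 (SE 0.031, limma adjusted p 2.36e-07). Pole3, its histone-fold partner, was higher (0.085 and 0.098), and Pole, the catalytic subunit, was not called (0.045 and -0.045). The 4 subunits of polymerase ε therefore did not move together.

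Pold4 (chromosome 19, 4231899 to 4233634, plus strand), the smallest subunit of polymerase δ, measured 9.61, 9.70 and 9.73 in ERT2 KO against 9.46, 9.37 and 9.46 in ERT2 WT, a change of 0.25 (SE 0.051, limma adjusted p 0.000969), and changed by 0.20 in Cre-ERT2 libraries. Pold2 (0.077 and 0.15) was higher in both comparisons and Pold3 in ERT2 libraries alone (0.19). Pold1, the catalytic subunit, was lower in Cre-ERT2 libraries (-0.14). Prim2 (chromosome 1, 33453810 to 33669795, minus strand), the large primase subunit, measured 10.85, 10.89 and 10.93 in Cre-ERT2 KO against 10.64, 10.66 and 10.65 in Cre-ERT2 WT, a change of 0.24 (SE 0.027, limma adjusted p 7.44e-06), and rose by 0.16 in ERT2 libraries. Pola1, the catalytic subunit of polymerase α, was higher by 0.12 and 0.19, Prim1, the small primase subunit, was higher in Cre-ERT2 libraries (0.063), and Pola2 was called in neither. Pold4 and Pole2 each overlap a coding model on the same strand (AC109138.7 and Gm49384), so some of their reads may be shared.

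Of the 8 clamp, clamp loader and Okazaki fragment genes, 1 was higher and 4 lower with ERT2 (29.8% and 29.3% of all genes), and 2 were higher and 4 lower with Cre-ERT2 (30.4% and 28.6%). Rfc1 (chromosome 5, 65261850 to 65335670, minus strand), the large subunit of the clamp loader, had the largest rise among called replication genes (Mcm9, not called, is given below). It measured 11.18, 11.12 and 11.20 in ERT2 KO against 10.76, 10.76 and 10.74 in ERT2 WT, and 11.20, 11.14 and 10.98 in Cre-ERT2 KO against 10.70, 10.76 and 10.65 in Cre-ERT2 WT. The groups were separate, with changes of 0.42 (SE 0.048, limma adjusted p 7.34e-06), or 1.34-fold, and 0.41 (SE 0.048, limma adjusted p 9.05e-06). The small subunit gene Rfc3 was lower in both (-0.11 and -0.14), Rfc2 was lower in ERT2 libraries (-0.074), Rfc4 was higher in Cre-ERT2 libraries (0.11), and Rfc5 was lower there (-0.12).

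Fen1 (chromosome 19, 10199132 to 10204169, minus strand), the flap endonuclease of Okazaki fragments, measured 11.60, 11.59 and 11.58 in ERT2 KO against 11.93, 11.91 and 11.93 in ERT2 WT, and 11.68, 11.65 and 11.60 in Cre-ERT2 KO against 11.91, 11.88 and 11.91 in Cre-ERT2 WT. No KO value reached a WT value, and the changes were -0.33 (SE 0.024, limma adjusted p 1.05e-07) and -0.25 (SE 0.024, limma adjusted p 1.15e-06). Fen1 overlaps the opposite-strand coding gene Tmem258, and 12 of the 51 genes overlap a coding gene on the other strand. Pcna, the sliding clamp, was lower by 0.12 and 0.067, the latter of which changed sign with quantile normalization (0.0054). Lig1, the ligase of the same pathway, was not called (-0.012 and 0.048). Of the RPA genes, Rpa1 was lower (-0.14 and -0.075) and Rpa2 and Rpa3 were not called.

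In precursor synthesis Tyms was lower in both comparisons (-0.19 and -0.087). Rrm1 was lower in ERT2 (-0.048) and higher in Cre-ERT2 libraries (0.046), and the first of these changed sign with quantile normalization. Rrm2 was called in Cre-ERT2 libraries (-0.082).

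Mcm8 and Mcm9 form a helicase pair apart from MCM2-7. Mcm8 measured 9.84, 9.89 and 9.87 in ERT2 KO against 9.51, 9.51 and 9.55 in ERT2 WT, and 9.78, 9.71 and 9.78 in Cre-ERT2 KO against 9.52, 9.46 and 9.45 in Cre-ERT2 WT. Every KO value lay above every WT value. The changes were 0.34 (SE 0.029, limma adjusted p 5.67e-07) and 0.28 (SE 0.029, limma adjusted p 3.26e-06). Mcm9 (chromosome 10, 53536315 to 53630439, minus strand), on the other hand, split within groups. It lay between 6.11 and 6.12 in 7 libraries and between 6.98 and 8.16 in the other 5, namely Cre-ERT2 WT replicate 1 (8.16), ERT2 KO replicates 1 (8.08) and 2 (6.98) and Cre-ERT2 KO replicates 1 (8.10) and 2 (7.53). No comparison of Mcm9 was called. Mcm9 overlaps the opposite-strand gene Asf1a, and the libraries were made with a stranded kit, but the strand setting used in counting is not given in the sources used here.

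**Figure D5:**
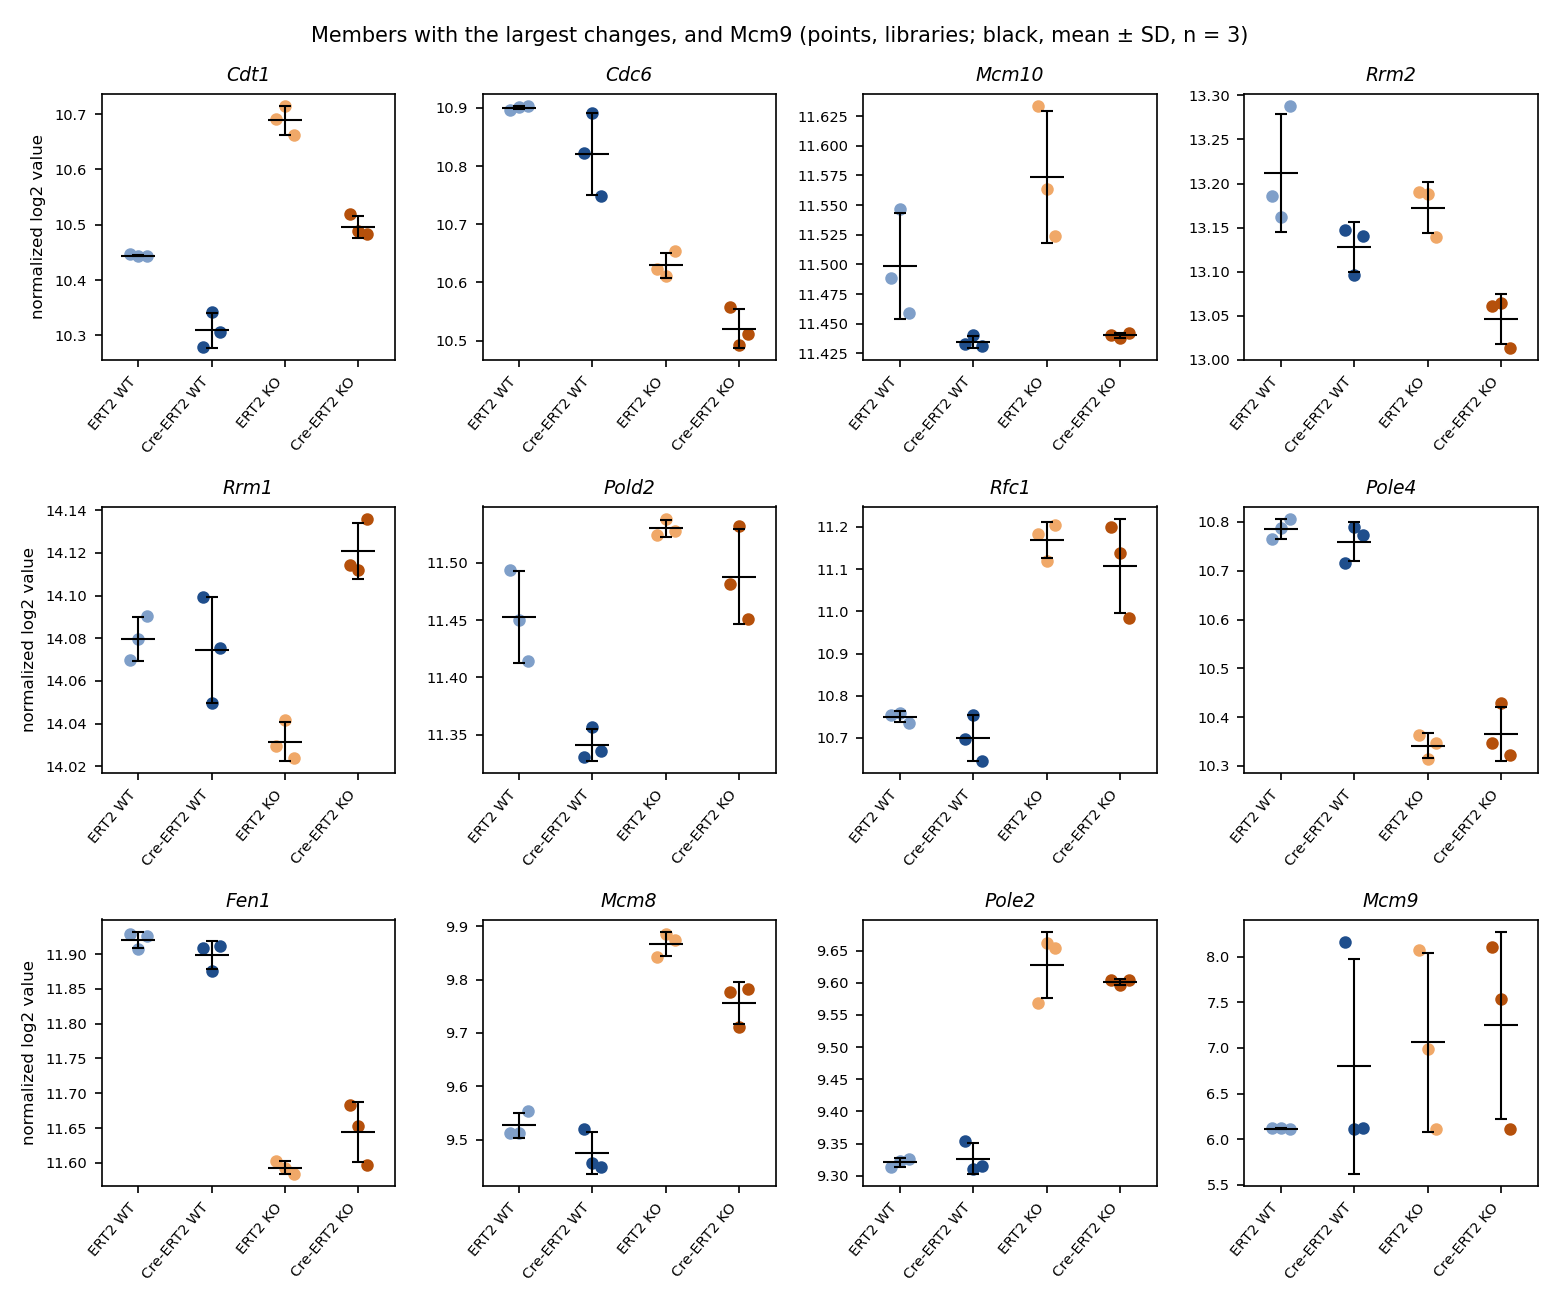
Normalized log2 values (y axis, a separate scale for each gene that does not start at 0) by group (x axis) for 11 replication genes named in the text and for Mcm9; points are libraries and black marks the mean ± SD of 3. Rfc1, Mcm8 and Pole2 lie higher and Pole4, Fen1 and Cdc6 lower in KO libraries, and Mcm9 is scattered within 3 of the 4 groups.

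With the E2F-type sites in view, 6 of the 15 genes with a site were higher and 8 lower in KO cells with ERT2, and 5 higher and 9 lower with Cre-ERT2. All genes had 29.8% higher and 29.3% lower calls with ERT2, and 30.4% and 28.6% with Cre-ERT2. Among the 28 genes with a window and no site, 8 were higher and 7 lower, and 9 higher and 9 lower. Medians were -0.071 and -0.075 with a site and 0.011 and 0.026 without. Genes with sites were found at both ends, Pole2 and Mcm8 among the rises and Pole4, Cdc6 and Mcm5 among the falls.

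Of 13 E2F and pocket protein genes, 6 were called lower and 1 higher in KO cells with ERT2 (29.3% and 29.8% of all genes), and 5 lower and 2 higher with Cre-ERT2 (28.6% and 30.4%). E2f2, an activator E2F, measured 10.97 to 11.11 in ERT2 KO against 12.04 to 12.11 in ERT2 WT libraries, and was lower by 1.04 in both comparisons. E2f1 was lower (-0.32 and -0.35), as was the repressor E2f8 (-0.28 and -0.36), and Tfdp2, a dimer partner, was higher (0.24 and 0.25). With β-catenin, E2f8 was higher in both backgrounds (0.25 in WT and 0.18 in KO), E2f3 (-0.17) and E2f4 (-0.12) were lower in WT, and Rbl1 (0.19) and E2f7 (0.12) were higher in KO cells.

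Nucleotide supply beyond the reductase and Tyms changed with β-catenin in several genes. Of 14 such genes 1 was higher and 7 lower in WT cells (5.93% and 5.95% of all genes), with a median of -0.084, and 2 were higher and 4 lower in KO cells (7.27% and 5.33%), with a median of -0.043. In WT cells the lower genes included Shmt1 (-0.18), Cad (-0.16) and Shmt2 (-0.15), which act in folate-dependent single-carbon transfer (Shmt1 and Shmt2) and pyrimidine synthesis (Cad), and Dck, the deoxycytidine salvage kinase, was higher (0.23). In KO cells Shmt2 (-0.21) and Shmt1 (-0.20) were lower, and Dck (0.14) and Samhd1 (0.60), which hydrolyzes deoxynucleotides, were higher. In KO against WT cells Dck was lower by 0.59 and 0.68, Tk1, the thymidine salvage kinase, was higher (0.37 and 0.39), Shmt2 was higher (0.30 and 0.24), and Samhd1 was higher in Cre-ERT2 libraries (0.69). Between KO and WT the list held 2 higher and 3 lower genes with ERT2 (29.8% and 29.3% of all genes), and 5 and 3 with Cre-ERT2 (30.4% and 28.6%).

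With β-catenin, where 11.9% of all genes were called in WT and 12.6% in KO cells, the other lists of the pathway held few calls. Of 10 fork protection and firing factors 1 was called in WT (Tipin, -0.082) and none in KO cells, of 9 S phase checkpoint genes none in either, of 16 nascent chromatin and Okazaki processing genes 1 in each (Top2a, a topoisomerase, 0.11 in both), and of 5 alternative loaders and unloaders 1 in WT (Chtf18, -0.11). Among 6 S phase cyclin and CDK2 genes, Ccne2 (-0.19) and Cdkn1a (-0.15) were lower in WT and Cdkn1a (-0.17) in KO cells. Of 24 mitosis genes none was called in WT cells, and Mki67 (0.091) and Cenpa (-0.13) were called in KO cells.

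Between KO and WT cells these lists are read against 29.8% of all genes called higher and 29.3% lower with ERT2, and 30.4% and 28.6% with Cre-ERT2. Of the nascent chromatin genes 8 of 16 were lower and 1 higher in ERT2 libraries, and 7 lower and 2 higher in Cre-ERT2 libraries, led by Rnaseh2b (-0.43 and -0.34), Uhrf1 (-0.37 and -0.43), Top2a (-0.32 in both) and Asf1b (-0.32 and -0.25). Of the alternative loaders 4 of 5 and 3 of 5 were lower and none higher, with Dscc1 at -0.22 and -0.24. The fork factors split into 4 higher and 4 lower, then 3 and 5, with Donson (-0.37 and -0.36) and Clspn (-0.29 and -0.27) lower and Timeless (0.24 and 0.30) higher. Of the checkpoint genes Atr, the kinase that senses stalled forks, was higher (0.31 and 0.32), and Wee1 (-0.22 and -0.16) and Cdc25a (-0.20 and -0.18) were lower. Cyclin E1 (Ccne1, -0.42 in both) and the inhibitor Cdkn1a (-0.64 and -0.66) were lower and Cdkn1b was higher (0.18 and 0.21). Of the 24 mitosis genes 7 were higher and 7 lower, then 7 and 6, near the shares of all genes, and the list held Bub1 (0.42 in both) and Mki67 (-0.31 and -0.20).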

How the data were processed

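Poly(A) RNA of 12 libraries (280 ng of RNA, 10 PCR cycles, KAPA stranded kit) was sequenced by the authors as paired-end reads. According to the study's methods and the submitters' processing notes, Salmon 1.4.0, STAR 2.7.6 and DESeq2 1.30.1 were used with mm10/GRCm38. The deposited table holds log2 values normalized between libraries by the authors. It gives no counts, so depth is unknown and precision rests on the replicates. The transformation is not stated. The median SD between replicates was 0.018 for genes with a mean up to 6, against 0.046 for means of 8 to 10. If the transformation compresses low values, changes and spreads of weakly expressed genes are understated.

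A linear model of 4 group means was fitted to all 12151 genes and 12 libraries with limma 3.58.1 (R 4.3.3; eBayes with a mean-dependent prior), with Benjamini-Hochberg adjustment over all genes and calls at an adjusted p under 0.05. The steps were tested on simulated data. Exact 2-sided permutation of 3 against 3 libraries allows no p below 0.1, the value of each member named as separate between groups. Values of every library are given for up to 4 called rises and 4 falls per comparison, and, chosen after their values were seen, for Mcm2, Mcm3 and Mcm4. The members and the gene lists were chosen with earlier results of these data known. Alternatives were a pseudocount of 1 on unlogged values, a mean of at least 8, another prior, median centering, quantile normalization, a replicate block, a fit to the compared libraries and leaving out each library. MCM2-7 counts and the changes of Cdc6 and Mcm3 with β-catenin in KO cells under the alternatives were added after the data were seen. Gene coordinates are from GENCODE (GRCm38).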

Additional observations from a re-analysis of the deposited data

Results flagged for a closer look

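The effect of β-catenin differed between KO and WT cells by the limma test of the difference itself for 3 genes named in the text, none of them among the 51 replication genes. Samhd1, the deoxynucleotide hydrolase, had an effect in KO that exceeded that in WT by 0.59 (SE 0.079, limma adjusted p 0.000928). It measured 8.83, 8.78 and 8.75 in ERT2 KO and 9.38, 9.40 and 9.38 in Cre-ERT2 KO libraries, against 8.57, 8.67 and 8.83 in ERT2 WT and 8.62, 8.72 and 8.77 in Cre-ERT2 WT. The KO groups were separate and the WT groups overlapped. The effect on Myc was less negative in KO, by 0.31 (limma adjusted p 2.70e-05), and the effect on Ikzf1 was more negative by -0.10 (limma adjusted p 0.0422). With 3 libraries in each group, no single library was tested as an outlying value.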

How the results depend on the processing

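The called changes given with every library as the largest of a comparison (up to 4 rises and 4 falls) kept their direction under 13 alternatives each, and all but Mcm8, Rrm2 and Pold2 in the β-catenin comparisons kept their calls. The smaller changes of Cdc6 and Mcm3 with β-catenin in KO cells, run after the data were seen, kept their direction and lost their calls under 7 and 3 of 13 alternatives (limma adjusted p 0.0379 to 0.149 and 0.0095 to 0.0890). Of smaller called changes, those of Mcm6 (0.0038 and 0.038), Rrm1 (ERT2, 0.034) and Pcna (Cre-ERT2, 0.0054) between KO and WT changed sign with quantile normalization. With a prior not dependent on the mean, 2 genes were higher with β-catenin in KO cells and 1 in the difference of effects. Median centering gave median changes of -0.0445 (ERT2) and -0.0334 (Cre-ERT2) between KO and WT, against -0.0305 and -0.0321 over all genes. Quantile normalization gave a median of 0.0151 (ERT2, against -0.00778 over all genes) and 12 lower genes (Cre-ERT2, 32.8% of all genes). It also gave 3 lower MCM2-7 genes (ERT2, 32.1% of all genes) and 1 higher gene in the difference (2.37% of all genes). A fit to the compared libraries left 3 lower genes with β-catenin in KO cells, and gives no separate value for the difference. Leaving out 1 library gave 1 to 3 lower genes with β-catenin in WT cells (1 without ERT2 WT replicate 1, Cre-ERT2 WT replicate 1 or Cre-ERT2 WT replicate 3) and, in KO cells, 2 to 6 lower (2 without ERT2 KO replicate 2, 3 without Cre-ERT2 KO replicate 3) and 1 to 3 higher (3 without Cre-ERT2 KO replicate 3). Where a group was left with 2 libraries, the spread was pooled over all groups. The cause of these shifts was not tested, and depth is unknown.

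The main fit did not pair libraries by replicate number. Same-numbered libraries correlated in their deviations by -0.0684 to 0.313. With β-catenin in KO cells these correlations were 0.0948, 0.132 and 0.0767, and those of other-numbered libraries were at most -0.0191. In the other comparisons same-numbered libraries were not always the closer ones. With a replicate block, 0 genes were higher and 2 lower with β-catenin in WT cells, 1 and 7 in KO, 15 and 16 between KO and WT in ERT2 libraries, and 16 and 18 in Cre-ERT2 libraries.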
